A study of Mus musculus with 62 samples.

Results

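The 9 genes described here, Lpl, Angptl4, Cd36, Cpt1b, Acadm, Pdk4, Ucp2, Ucp3 and Plin2, carry out or control the use of fatty acids in muscle and are known targets of the peroxisome proliferator-activated receptors (PPARs). They were chosen by name from a list of lipid-use genes driven by PPARs, and all 9 were found among the 47643 genes of the expression table. PPARs are nuclear receptors that bind DNA together with a retinoid X receptor and are activated by fatty acids and their derivatives. In skeletal muscle, PPAR alpha and PPAR delta, helped by the coactivators encoded by Ppargc1a and Ppargc1b, raise transcription of genes for the uptake of fatty acids, their entry into mitochondria, beta-oxidation, and the sparing of glucose. The diaphragm contracts without rest and draws much of its energy from fatty acids.

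RNA was sequenced from the diaphragm of 62 mice in a study of cachexia, the loss of muscle that accompanies some tumours. The 20 control mice were injected with PBS in place of tumour cells. Another 20 mice carried in the flank the human melanoma xenograft MAST552A/SJMEL031086_X1, which the labels call non-cachectic, and 22 carried MAST360B/SJMEL030083_X2, which they call cachectic. Diaphragms were taken at 2, 4, 6 and 8 weeks, with 5 mice in every group at every time except the cachectic group at 8 weeks, which had 7. The mice were female and 2 months old by the sample labels, which give the strain as C57BL6/J, while the description of the study gives nude mice (NCI Ath/nude), and the expression table does not settle which holds. The label age is 2 months at every week, and the article gives 2 months for the mice as purchased. Age when the diaphragms were taken is not given, so time after injection and age cannot be told apart. Each kind of tumour was represented by 1 xenograft line, so the cachectic state and the identity of the line cannot be told apart. Every replicate was a separate mouse.

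Transcript levels were transcripts in every 1000000 (TPM), which are scaled for gene length, so levels of different genes can be compared within a library. The read depth of the libraries is unknown, since the table holds no counts. Fold changes are differences of log2(TPM + 1) between group means, a scale that understates changes of genes at a few TPM. They were tested with limma over 13578 genes, those with 1 TPM or more in 5 or more mice, and all 9 genes passed that filter. Cachectic against control mice shows how diaphragms differ under the wasting tumour, non-cachectic against control mice under a tumour without wasting, and cachectic against non-cachectic mice between the tumours. A gene is called higher or lower where its p adjusted over all 13578 genes was under 0.05. Statements that all mice of a group lay above or below another group describe the values and carry no test. The share of all genes that separate in this way is not given, so a separation is not shown to be particular to the genes named.

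Several libraries stood apart from their groups. The number of genes above 0 TPM ran from 15069 to 19057 with a median of 18296, and 4 libraries listed far fewer than the rest: at 2 weeks cachectic replicates 3 (15069) and 4 (16389) and non-cachectic replicate 5 (15493), and at 8 weeks cachectic replicate 3 (15263), against 17909 in the next library. The same 4 libraries had the 4 highest shares of TPM from the 37 mitochondrially encoded genes, 54.4% to 61.5%, against 32.5% to 50.1% in the other libraries. They also held the 4 lowest values of the series for Pdk4, Cpt1b, Ucp3 and Lpl. Cpt1b lay between 89.7 and 149.7 TPM in them and at 265 TPM or above in every other mouse. Acadm lay between 299 and 315 TPM in the same 4 libraries, inside the span of the other mice, 257 to 438 TPM. What set these libraries apart was not tested, and for each of the 9 genes the 8-week difference against control is given with and without cachectic replicate 3.

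The mitochondrial share was also set out by group. It averaged 46.4% ± 1.28 (SD, n = 5) in control and 39.6% ± 3.75 (n = 5) in cachectic mice at 6 weeks, and 45.0% ± 3.18 (n = 5) and 40.7% ± 7.78 (n = 7) at 8 weeks, the last of these 38.0% ± 3.19 (n = 6) without replicate 3. TPM values of one library sum to 1000000, so a lower share of these genes leaves more for all others. The median fold change of all genes, cachectic against control, was −0.42 at 2 weeks, 0.04 at 4 weeks, 0.17 at 6 weeks and −0.09 at 8 weeks. Leaving out the 4 libraries that list the fewest genes moved it to −0.03 at 2 weeks and turned it to 0.06 at 8 weeks, where array quality weights also turned it (0.05). After scaling each library by the median ratio of its genes to their means those medians became −0.06, 0.00, 0.01 and 0.01, and after rescaling the nuclear genes alone they became −0.38, −0.03, 0.03 and −0.21. Against the non-cachectic mice the median at 6 weeks was 0.14 and became 0.01 under both scalings.

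Marker genes of other cell types were summed in every library, since the diaphragm holds blood vessels, fat and a serous lining beside muscle and lies against the liver, and their part in the results was not tested. In bulk RNA, fewer cells of a type and less RNA per cell cannot be told apart. Myofiber markers (12 of 12 tested, Acta1 the most abundant) summed to 39383 to 96844 TPM in all libraries. At 8 weeks the sum was 41159 TPM in cachectic replicate 3 and 70008 to 96844 TPM in the other 6 cachectic mice, and 1 of the 12 genes, Mb, was lower than in control, while without replicate 3 the count was 1 lower and 2 higher. Endothelial markers (10 of 10 tested, Aqp1 the most abundant) summed to 159 TPM in cachectic replicate 3 at 8 weeks, 602 to 911 TPM in the other 6 cachectic mice and 485 to 714 TPM in control, with 1 of 10 higher and 1 of 10 lower than control, near the shares of all genes (6.65% higher and 8.12% lower). At 6 weeks the endothelial sum was 635 to 899 TPM in cachectic and 558 to 627 TPM in control mice, and the groups did not overlap. The neutrophil sum did not overlap either (17.0 to 31.9 TPM and 4.12 to 13.2 TPM), and the myofiber sum averaged 81309 and 68331 TPM in groups that did.

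Adipocyte markers (9 of 10 tested, Fabp4 the most abundant) summed to 4773 TPM in cachectic replicate 3 and 967 to 1704 TPM in the other 6 cachectic mice at 8 weeks. The control mice of that week summed to 717 to 1573 TPM, and 1 of the 9 genes, Fabp4, was higher in cachectic mice with replicate 3 and not called without it. Over all libraries the median was 693.9 TPM for Fabp4, 24.8 TPM for Adipoq and 1026 TPM for the sum. Fabp4 therefore made up most of a typical adipocyte sum. Brown adipocyte markers (3 of 3 tested, Cidea the most abundant) summed to 6.04 to 112.6 TPM in all libraries, with the 3 highest sums at 2 weeks. Macrophage markers (9 of 10 tested, Lyz2 the most abundant) were higher in cachectic than control mice at 8 weeks for 5 of 9 genes, beside 6.65% of all genes, with sums of 304 to 1203 TPM against 309 to 611 TPM. Those 5 were Mrc1, C1qa, C1qb, C1qc and Cd163, and the endothelial genes were Esam, higher, and Kdr, lower, all named after their values were seen. Neutrophil markers (4 of 7 tested, S100a9 the most abundant, Ly6g at 0 in most mice) were higher for 2 of 4 genes (S100a8 and Retnlg), or 3 without cachectic replicate 3, with mean sums of 35.9 and 11.2 TPM. Lymphocyte markers (4 of 8 tested, Cd79a the most abundant, Cd3e at 0 in most mice) and mesothelial markers (6 of 6 tested, Upk3b the most abundant) had 0 genes past limma's test at 8 weeks, with 0 and 1 at an unadjusted p under 0.05, and their median sums over all libraries were 5.23 and 120.6 TPM.

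Liver markers (10 of 10 tested, Alb the most abundant) ran from 7.86 to 25165 TPM with a median of 91.0 TPM. The highest sums were in control replicates 2, 4 and 5 at 2 weeks (25165, 11667 and 9144 TPM), while control replicates 1 and 3 of that week had 7.86 and 97.9 TPM. The next highest sums were in cachectic mice, with 5206 TPM in replicate 5 at 6 weeks, 3542 TPM in replicate 1 at 2 weeks and 2189 TPM in replicate 2 at 8 weeks. None of the 10 liver genes passed the test at 8 weeks under limma, where 1 had an unadjusted p under 0.05.

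**Figure D1:**
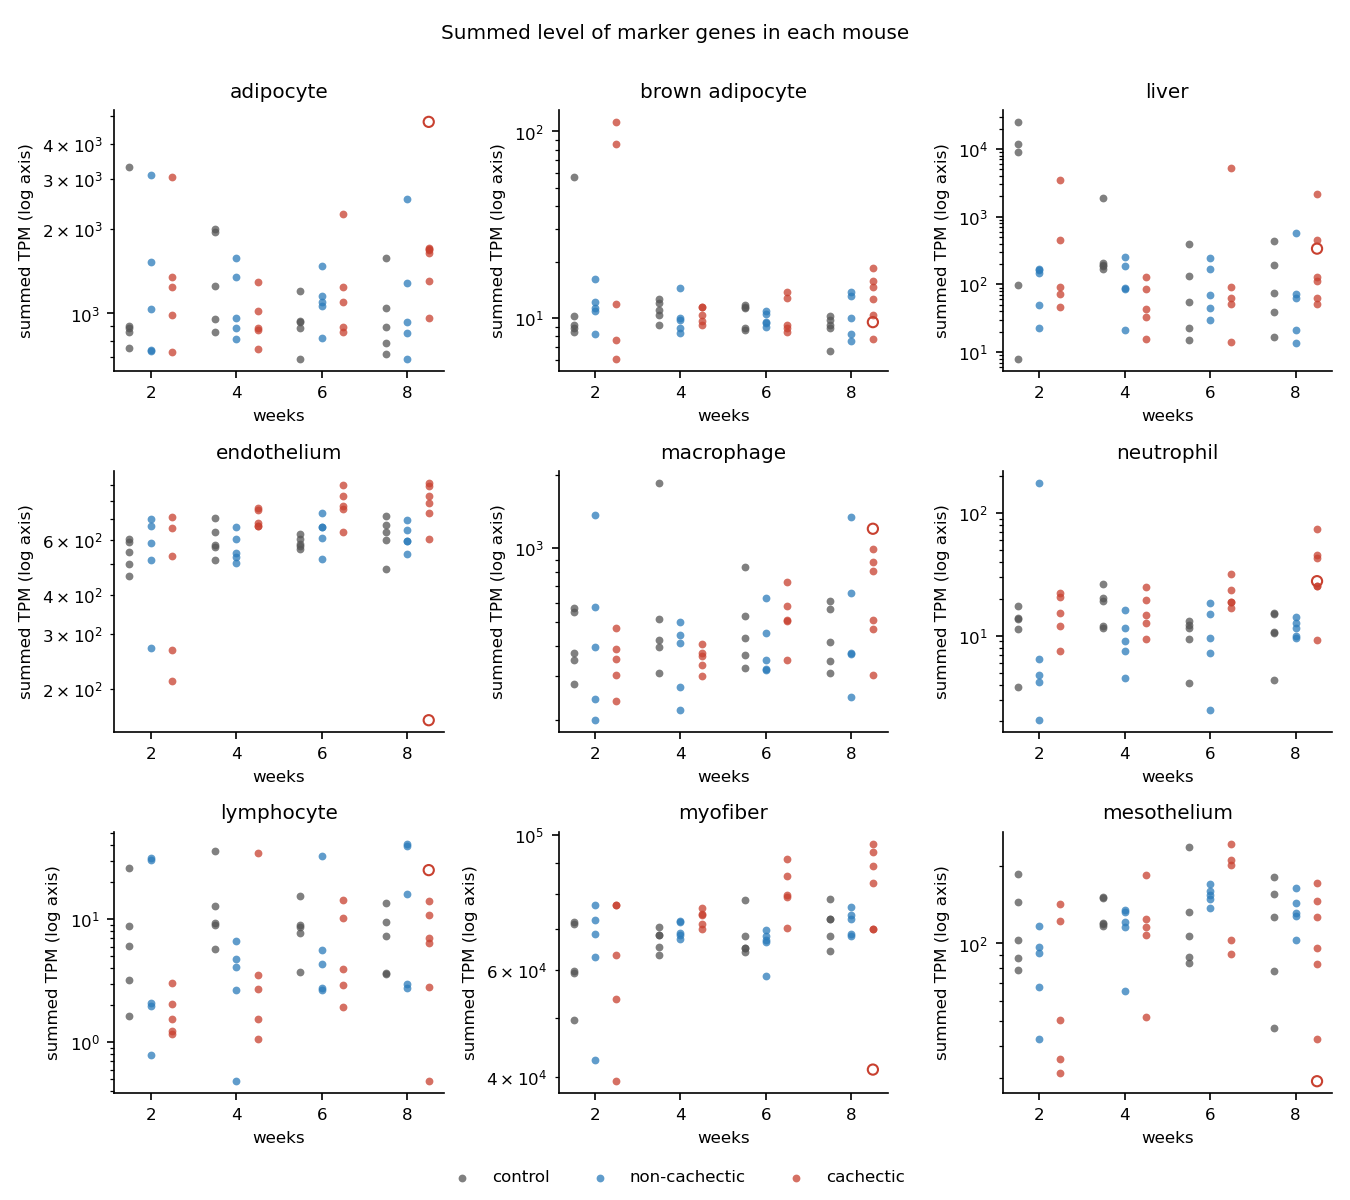
Summed TPM of each marker list in every mouse, on log axes, by group and week. The open circle is cachectic replicate 3 at 8 weeks, whose endothelial and myofiber sums were the lowest and adipocyte sum the highest of its group.

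Counts of called members are read beside the share of all tested genes called in the same comparison. At 2 weeks 0 of the 9 genes were called in cachectic against control mice, where 29.3% of all genes were, 3781 of them lower. That comparison rested on single libraries, since the 3973 genes called became 21, 2035 or 1125 without control replicate 2, 4 or 5, and 7936, 7741, 169, 478 or 6246 without cachectic replicate 1, 2, 3, 4 or 5. Against non-cachectic mice at 2 weeks it was 0 of 9, with 0% of all genes called (5 and 827 genes without non-cachectic replicate 2 or 5, and 464 without cachectic replicate 2), and for non-cachectic against control 0 of 9, with 4.43% (203 genes in place of 602 without control replicate 2). At 4 weeks the count was 0 of 9 in all 3 comparisons, with 0.0221% of all genes called in cachectic against control, 0.0295% in cachectic against non-cachectic and 0% in non-cachectic against control mice. At 6 weeks 1 of 9 was called in cachectic against control mice (6.79% of all genes) and 1 of 9 against non-cachectic mice (5.85%), in both cases Acadm. Without cachectic replicate 1 of that week the 922 and 794 genes called became 413 and 346, and without control replicate 5 the 922 became 598. At 8 weeks 4 of 9 were called against control (14.8% of all genes) and 4 of 9 against non-cachectic mice (12.9%), and both times these were Pdk4, Acadm and Ucp3, lower, and Cd36, higher. Non-cachectic against control mice gave 0 of 9 and 0% of all genes at 6 and again at 8 weeks.

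The comparisons of cachectic mice within a week share those mice, so they are not independent. Where 0 genes of all were called by limma, 1709 had an unadjusted p under 0.05 in cachectic against non-cachectic mice at 2 weeks, and 68, 100 and 55 in non-cachectic against control mice at 4, 6 and 8 weeks, and Dunn's rank test called 0 after adjustment and 481, 209, 223 and 110 without it. Behind the counts of 0 from limma, the members with an unadjusted p under 0.05 were Plin2 and Angptl4 in non-cachectic against control mice at 2 weeks (beside 1688 of all 13578 genes), Cd36 in both cachectic comparisons at 4 weeks (beside 728 genes against control and 697 against non-cachectic mice), and 0 in each of the other comparisons with a count of 0 within a week. The same rank test called 0 members after adjustment in every comparison within a week except cachectic against control at 8 weeks, where it called 1 beside 1121 of all genes, and 0 beside 607 against non-cachectic mice. Without adjustment it called 0 to 5, with 5 in each cachectic comparison at 8 weeks beside 3256 and 3072 of all genes. Of all genes called at 6 weeks against control, 82.8% were higher, and under median-ratio and nuclear scaling this share was 46.1% and 45.6%. For the same groups at 8 weeks the share was 45% and became 49.5% and 20.6%, and without cachectic replicate 3 it was 67.2%. Against non-cachectic mice it was 73.2% at 6 weeks, against 45% and 37.8% under the scalings, and 52.2% at 8 weeks, against 48.4% and 23.3%.

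**Figure D2:**
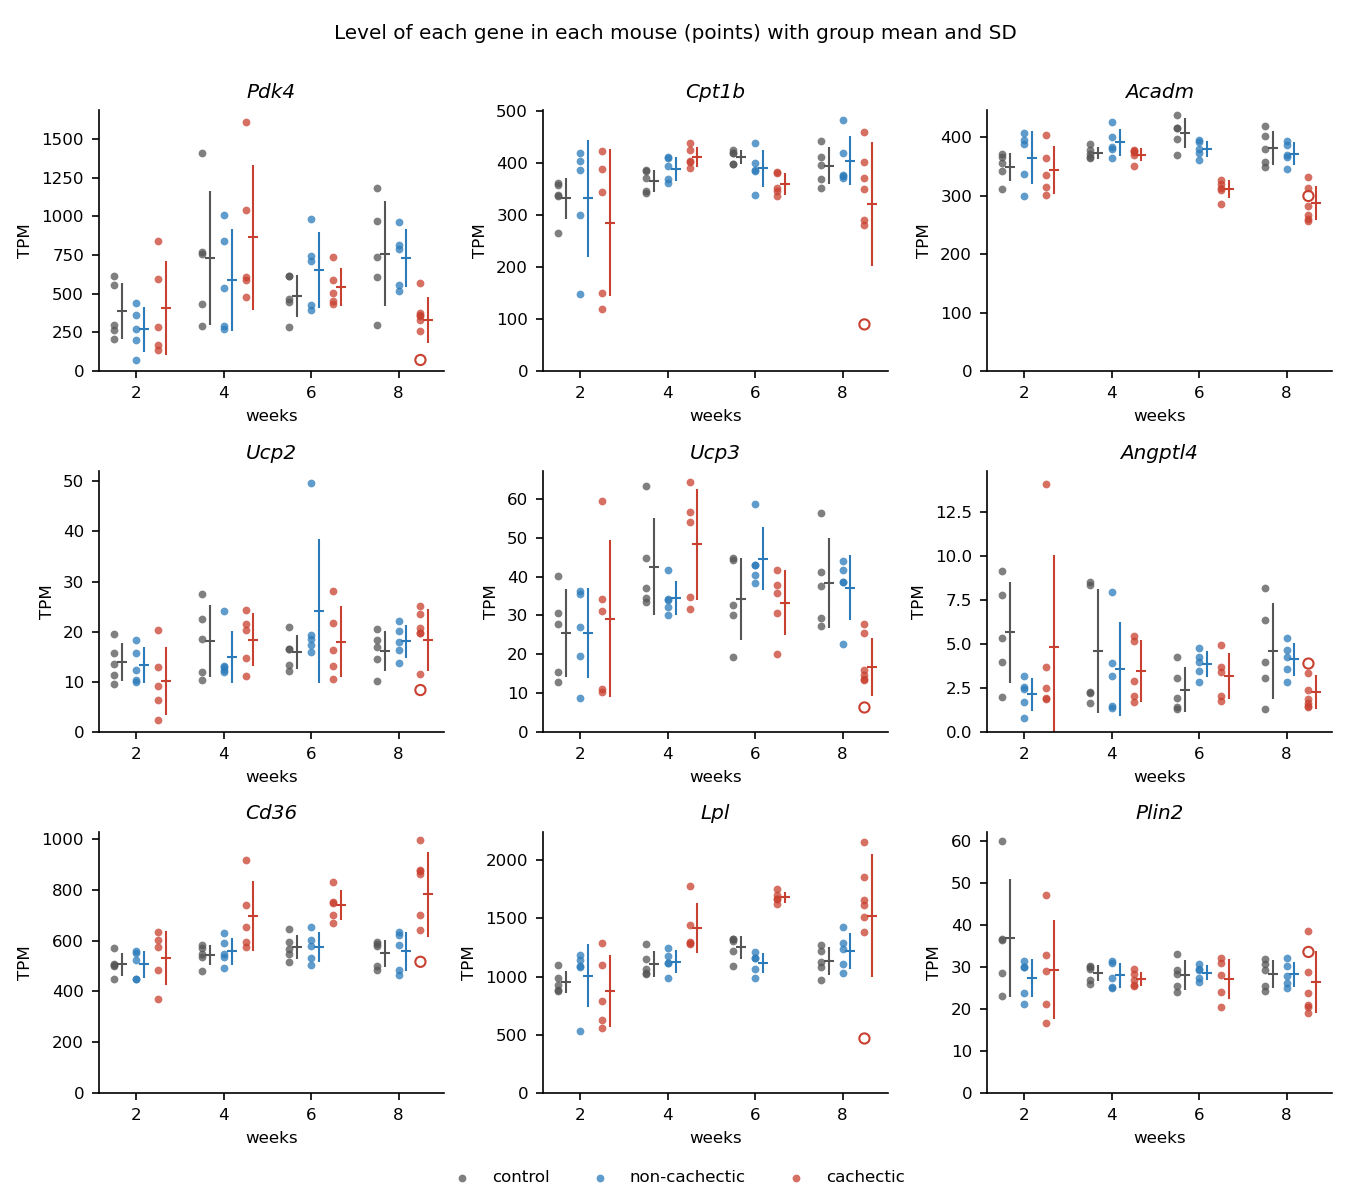
TPM of the 9 genes in each of 62 mice by week, one panel per gene, with the mean and SD of each group drawn to the right of its points, where lower ends below 0 are not drawn. Control, non-cachectic and cachectic mice are side by side in each week, and the open circle marks cachectic replicate 3 at 8 weeks, lowest of its group for Pdk4, Cpt1b, Ucp2, Ucp3, Lpl and Cd36.

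Uptake begins with Lpl, which encodes lipoprotein lipase, the enzyme that frees fatty acids from circulating triglyceride at the capillary wall (chr8:68880491-68907448, plus strand, GRCm38). It was the most abundant of the 9 genes, with a median of 1168 TPM. At 6 weeks the 5 control mice had 1318, 1322, 1219, 1304 and 1087 TPM, the 5 non-cachectic mice 1211, 1159, 1064, 990.0 and 1162 TPM and the 5 cachectic mice 1747, 1698, 1666, 1623 and 1666 TPM. All 5 cachectic values lay above all 10 others, yet the differences of 0.43 against control (adjusted p = 0.24) and 0.59 against non-cachectic mice (adjusted p = 0.088) were not called. At 8 weeks the control mice had 1125, 1217, 968, 1271 and 1084 TPM, the non-cachectic mice 1232, 1287, 1422, 1111 and 1032 TPM, and the 7 cachectic mice 468 at the lowest, 1617 at the median and 2155 at the highest TPM. Cachectic replicate 3 was the lowest of these 17 values, and the other 6 cachectic mice lay above every control mouse.

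The difference of Lpl at 8 weeks was 0.31 against control (95% confidence interval −0.08 to 0.70, adjusted p = 0.33) and 0.21 against non-cachectic mice (adjusted p = 0.56). Without cachectic replicate 3 it was 0.57 (adjusted p = 0.0032) and 0.47 (adjusted p = 0.017), and Lpl was then called higher in both comparisons. Over the alternatives that refit the fold change at 8 weeks the adjusted p against control ran from 5.5e-07 to 0.74, with 4 of 21 under the threshold, median-ratio scaling among them (0.47, adjusted p = 0.0016). With the replicate number as a block the differences were smaller, 0.14 against control and 0.04 against non-cachectic mice, and neither was called. At 6 weeks leaving out the 4 libraries that list the fewest genes, none of which is in the 6-week groups, kept the difference against control at 0.43 and moved its adjusted p to 0.0015 within a range of 5.1e-05 to 0.46. Those libraries enter the error of every comparison, because limma estimates 1 residual variance per gene over all 12 groups. Under median-ratio scaling the 6-week difference against control was 0.24 and not called. Against non-cachectic mice of that week, 4 of the 19 alternatives that refit the fold change called Lpl higher. The adjusted p there ran from 1.6e-06 to 0.19. The 3 highest group means of Lpl were those of cachectic mice at 6 weeks (1679.9 ± 45.99 TPM, SD), 8 weeks (1521 ± 527 TPM) and 4 weeks (1415 ± 211 TPM). The mean at 8 weeks was 1696 ± 274 TPM without cachectic replicate 3, above that at 6 weeks. The lowest mean, 874 ± 311 TPM in cachectic mice at 2 weeks, held 2 of the libraries that list the fewest genes and was 1060 ± 250 TPM without them.

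Angptl4 encodes a secreted inhibitor of lipoprotein lipase (chr17:33773750-33781830, minus strand). It was the least abundant of the 9 genes, at 0.790 to 14.1 TPM with a median of 3.13 TPM, and reached 1 TPM in 61 of 62 mice. Control mice had 6.39, 8.20, 3.98, 3.08 and 1.32 TPM at 8 weeks, non-cachectic mice 2.85, 4.65, 5.32, 4.28 and 3.60 TPM, and cachectic mice 1.41 at the lowest, 1.89 at the median and 3.90 at the highest TPM. The cachectic mice lay within the span of the control mice, and 5 of 7 lay below every non-cachectic mouse. The difference was −0.66 against control (interval −1.38 to 0.06, adjusted p = 0.23) and −0.67 against non-cachectic mice (adjusted p = 0.24), and neither was called. They were −0.76 (adjusted p = 0.15) and −0.78 (0.15) without cachectic replicate 3. Its spread within groups, an SD of 0.63 on the log2 scale, was wider than that of 92.7% of the genes tested. The highest single value, 14.1 TPM, was in cachectic replicate 1 at 2 weeks, a library with a raised liver sum.

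Cd36 encodes the membrane protein that carries fatty acids into muscle fibers and endothelial cells (chr5:17781690-17888801, minus strand). At 8 weeks the control mice had 594, 586, 501, 579.6 and 486 TPM, the non-cachectic mice 583, 621, 634, 464 and 486 TPM, and the cachectic mice 517 at the lowest, 863 at the median and 996 at the highest TPM. Of the 7 cachectic mice 6 lay above every control and every non-cachectic mouse, and the lowest was replicate 3. Cd36 was higher by 0.48 against control (interval 0.24 to 0.72, adjusted p = 0.0031) and by 0.47 against non-cachectic mice (adjusted p = 0.0048). Without replicate 3 the differences were 0.58 (adjusted p = 0.00012) and 0.56 (adjusted p = 0.00020). A fit to the compared groups alone ended both calls, with the same differences and adjusted p = 0.13 and 0.19, the upper ends of ranges that began at 8.4e-06 and 7.3e-06. Dunn's test after adjustment and a threshold of 1 on the log2 fold change ended them too.

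At 6 weeks the values of Cd36 were 645, 549, 567, 517 and 595 TPM in control, 653, 602, 529.9, 503 and 579 TPM in non-cachectic and 829, 748, 750.5, 671 and 701 TPM in cachectic mice. Every cachectic mouse lay above every other mouse of that week, and the differences were 0.36 against control (adjusted p = 0.078) and 0.37 against non-cachectic mice (adjusted p = 0.080), neither called. Without the 4 libraries that list the fewest genes both were called (adjusted p = 0.014 for each, within ranges of 0.0011 to 0.71 and 0.0072 to 0.64). Median-ratio scaling lowered the difference against control to 0.17, and nuclear scaling lowered that against non-cachectic mice to 0.21. Neither was called under those scalings. At 4 weeks the difference against control was 0.34 (adjusted p = 0.64), and 4 of the 5 cachectic values exceeded the highest control value. The 3 highest group means of Cd36 were those of cachectic mice at 8, 6 and 4 weeks, 782 ± 166, 739.7 ± 60.1 and 696 ± 138 TPM (SD), and no mean differed from the next in the order by more than the larger SD.

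Entry into mitochondria depends on Cpt1b, the muscle form of carnitine palmitoyltransferase 1, which couples long-chain acyl groups to carnitine (chr15:89416405-89425863, minus strand). At 6 weeks the values were 397, 425, 398, 419 and 420.3 TPM in control, 439, 384, 399.6, 339 and 386 TPM in non-cachectic and 382, 351, 383, 337 and 345 TPM in cachectic mice. All 5 cachectic mice lay below all 5 control mice, while 4 of 5 lay within the non-cachectic span. The difference against control was −0.20 (adjusted p = 0.72), not called. It was called under median-ratio scaling (−0.39, adjusted p = 0.026), array quality weights (−0.22, 0.029) and a fit to the compared groups alone (−0.20, 0.023). The adjusted p ranged from 0.023 to 0.83. At 4 weeks the order was the other way, with all 5 cachectic mice (403, 425, 404, 439 and 389.9 TPM) above all 5 control mice (345, 342, 384, 371 and 387 TPM). None of the 9 genes was called at that time.

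At 8 weeks Cpt1b had 412, 443, 352, 396 and 370.0 TPM in control mice, 419, 482, 375, 377 and 371 TPM in non-cachectic mice, and 89.7 at the lowest, 351 at the median and 460.2 at the highest TPM in cachectic mice. The lowest was replicate 3, and the next lowest cachectic mouse had 280.2 TPM. The difference was −0.43 against control (interval −0.91 to 0.04, adjusted p = 0.24), or −0.15 without replicate 3 (adjusted p = 0.68). It was called lower under nuclear scaling (−0.53, adjusted p = 0.028, the lowest of a range that reached 0.68). Against non-cachectic mice 5 of 7 cachectic mice lay below all others, and the difference of −0.47 (adjusted p = 0.21), or −0.19 without replicate 3 (0.59), was called lower under median-ratio (−0.33, 0.019) and nuclear scaling (−0.57, 0.022). Under array quality weights both changed sign (0.06 and 0.01). Cpt1b was the only member with a step in the order of its 12 group means wider than the larger SD, the step from non-cachectic to control mice at 4 weeks, and the other 8 members had 0 of 11 such steps.

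Acadm encodes medium-chain acyl-CoA dehydrogenase, which opens each round of beta-oxidation of medium-chain acyl groups in the mitochondrial matrix (chr3:153922357-153944632, minus strand). It varied least of the 9 genes, with a residual SD of 0.11, smaller than that of all but 0.7% of the genes tested, and a span of 257 to 438 TPM over 62 mice. Its values at 8 weeks were 401, 419, 349, 379.6 and 358 TPM in control mice and 393, 387, 369, 366 and 345 TPM in non-cachectic mice, and in cachectic mice 257 at the lowest, 283 at the median and 331 at the highest TPM. All 7 cachectic mice lay below all 10 other mice of that week. Acadm was lower than in control, with a difference of −0.41 (interval −0.55 to −0.27, adjusted p = 2.8e-05) and lower than in non-cachectic mice, with −0.38 (adjusted p = 0.00012). Without cachectic replicate 3, which had 299 TPM and was not the lowest of its group, the differences were −0.42 (adjusted p = 1.4e-05) and −0.39 (adjusted p = 5.8e-05).

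The size of the Acadm difference at 8 weeks moved with the scaling. Under median-ratio scaling it was −0.25 against control (adjusted p = 0.31) and −0.24 against non-cachectic mice (adjusted p = 0.34), no longer called, and under nuclear scaling it was −0.51 and −0.48 and called. A fit to the compared groups alone also ended both calls (adjusted p = 0.055 and 0.088). A threshold of 1 on the log2 fold change ended both, and Dunn's test after adjustment ended the call against non-cachectic mice. The ranges over the alternatives that refit the fold change ran from 2.4e-07 to 0.31 and from 1.4e-06 to 0.34, and every value was negative.

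Acadm was also the only member called at 6 weeks. The values were 438, 369, 415, 397 and 416 TPM in control, 395, 373, 391, 360.3 and 379 TPM in non-cachectic and 287, 326, 313, 310.0 and 319.8 TPM in cachectic mice. The 5 cachectic mice lay below all 10 others. Acadm was lower than in control, with a difference of −0.39 (adjusted p = 0.00060), a call kept by the 19 alternatives that refit the fold change and not by Dunn's test after adjustment or by a threshold of 1 on the log2 fold change, and lower than in non-cachectic mice, with −0.29 (adjusted p = 0.013). The second call was lost by the same 2 alternatives, without cachectic replicate 1 (−0.26, adjusted p = 0.067) and under median-ratio scaling (−0.44, adjusted p = 0.16), the highest of a range that began at 9.5e-05. At 4 weeks cachectic mice had 375, 377, 370.3, 351 and 378 TPM and control mice 379, 370.5, 389, 367 and 364 TPM, and 4 of 5 cachectic values lay within the control span. The 2 lowest group means of Acadm were those of cachectic mice at 8 weeks (287 ± 28.3 TPM, SD, n = 7) and at 6 weeks (311 ± 15.05 TPM, n = 5), with the highest in control mice at 6 weeks (407 ± 25.6 TPM).

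Pdk4 encodes pyruvate dehydrogenase kinase 4, which switches off pyruvate dehydrogenase and so spares glucose when fatty acids are burned (chr6:5483351-5496309, minus strand). It had the widest spread of the 9 genes, with a residual SD of 0.77, above that of 96.1% of the genes tested, and values of 71.0 to 1611 TPM. At 8 weeks the control mice had 1186, 971, 606, 735 and 297 TPM, the non-cachectic mice 817, 965, 786, 517 and 557 TPM, and the cachectic mice 71.8 at the lowest, 354 at the median and 569.6 at the highest TPM. Of the 7 cachectic mice 6 lay below every non-cachectic mouse, while 2 lay below every control mouse, of which replicate 5 was the lowest, and cachectic replicate 3 was the lowest of all. Pdk4 was lower than in control, with a difference of −1.24 (interval −2.13 to −0.36, adjusted p = 0.046) and lower than in non-cachectic mice, with −1.29 (adjusted p = 0.042).

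Both Pdk4 calls lay close to the threshold. Without cachectic replicate 3 the differences were −0.91 (adjusted p = 0.13) and −0.96 (adjusted p = 0.12). Against control the call was also lost without cachectic replicate 2 (−1.27, adjusted p = 0.058) or 5 (−1.22, 0.058), and without control replicate 1 (−1.05, 0.14), 2 (−1.12, 0.13), 3 (−1.29, 0.070) or 4 (−1.22, 0.088). Against non-cachectic mice it was lost without cachectic replicate 2 (−1.32, adjusted p = 0.053) or 5 (−1.26, 0.053), and without non-cachectic replicate 1 (−1.24, 0.089), 2 (−1.18, 0.12), 3 (−1.25, 0.076) or 5 (−1.38, 0.053). Each call was also lost with no filter on low values (adjusted p = 0.070 and 0.064), with the compared groups alone (0.19 and 0.13), without the 4 libraries with the most liver RNA (0.055 and 0.051), and by Dunn's test after adjustment. Of 21 alternatives that refit the fold change 11 kept each call, every value was negative, and the adjusted p ran from 0.012 to 0.19 against control and from 0.011 to 0.13 against non-cachectic mice. At 6 weeks the difference against control was 0.19 (adjusted p = 0.86), and the cachectic mice had 736, 587, 436, 505 and 454 TPM against 448, 612, 464, 285 and 615 TPM in control. Against non-cachectic mice of that week the difference had the other sign, −0.21 (adjusted p = 0.86).

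Ucp3 encodes a carrier of the inner mitochondrial membrane found mainly in muscle, whose transport function is not settled (chr7:100472990-100486432, plus strand). Values in the 8-week control mice were 56.3, 37.6, 29.4, 41.1 and 27.2 TPM, in the non-cachectic mice 22.8, 43.9, 41.6, 38.6 and 38.7 TPM, and in the cachectic mice 6.33 at the lowest, 14.7 at the median and 27.8 at the highest TPM. Of the 7 cachectic mice 6 lay below every control mouse and 5 below every non-cachectic mouse, with replicate 3 the lowest. Ucp3 was lower than in control, with a difference of −1.22 (interval −1.86 to −0.57, adjusted p = 0.0055) and lower than in non-cachectic mice, with −1.18 (adjusted p = 0.0078). Without replicate 3 the differences were −1.02 (adjusted p = 0.016) and −0.99 (adjusted p = 0.021).

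The 21 alternatives that refit the fold change kept the Ucp3 call against control, with adjusted p from 0.00057 to 0.047, and Dunn's test after adjustment did not. Against non-cachectic mice 20 of the 21 did, while a fit to the compared groups alone (adjusted p = 0.063, the highest of a range from 0.00099) and Dunn's test after adjustment did not. Array quality weights moved the difference most, to −0.62 against control and −0.63 against non-cachectic mice. At 6 weeks the cachectic mice had 30.7, 37.9, 20.04, 41.7 and 35.9 TPM and the control mice 30.2, 44.6, 32.6, 19.3 and 44.2 TPM, groups that overlapped, with a difference of −0.02 (adjusted p = 0.98). Against non-cachectic mice of that week 4 of 5 cachectic mice lay below all others, and the difference of −0.44 (adjusted p = 0.56) was not called. Mean Ucp3 ran from 16.8 ± 7.44 TPM in cachectic mice at 8 weeks (SD, n = 7) to 48.3 ± 14.3 TPM in cachectic mice at 4 weeks (n = 5), a ratio of 2.88.

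Ucp2 encodes the related carrier found in many tissues, and its gene begins 6904 bases past the end of Ucp3 on the same strand (chr7:100493337-100502020). The 8-week control mice had 10.2, 18.3, 16.9, 20.6 and 14.6 TPM, the non-cachectic mice 17.97, 16.3, 13.8, 20.1 and 22.2 TPM, and the cachectic mice 8.38 at the lowest, 19.8 at the median and 25.2 at the highest TPM. The groups overlapped, and the difference was 0.13 against control (adjusted p = 0.83) and −0.04 against non-cachectic mice (adjusted p = 0.96), so the neighbouring genes differed in that Ucp3 was called at 8 weeks and Ucp2 was not. Leaving out cachectic replicate 3 gave 0.30 (adjusted p = 0.57) and 0.12 (0.84) for Ucp2, the second with its sign turned. The difference between the 2 genes was not tested. A value of 49.7 TPM in non-cachectic replicate 4 at 6 weeks was the highest of the series, and the other 4 mice of that group had 15.9 to 19.3 TPM.

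Plin2 encodes perilipin 2, a coat protein of lipid droplets in most tissues (chr4:86648386-86670060, minus strand). Levels at 8 weeks were 31.9, 25.4, 30.8, 29.3 and 24.2 TPM in control mice and 32.1, 24.9, 26.1, 27.9 and 30.3 TPM in non-cachectic mice, and in cachectic mice 19.1 at the lowest, 23.9 at the median and 38.6 at the highest TPM. The cachectic mice spread to both sides, 4 of 7 below and 2 of 7 above every control mouse, and the difference was −0.13 (adjusted p = 0.68), or −0.19 without cachectic replicate 3 (adjusted p = 0.51). The highest group mean of Plin2 was 1.39 times the lowest, the narrowest range of the 9 genes, but without the 4 libraries that list the fewest genes Cpt1b (1.24) and Acadm (1.43) had narrower ranges than Plin2 (1.46). Its highest value, 60.0 TPM, was in control replicate 2 at 2 weeks, the library with the highest liver sum.

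**Figure D3:**
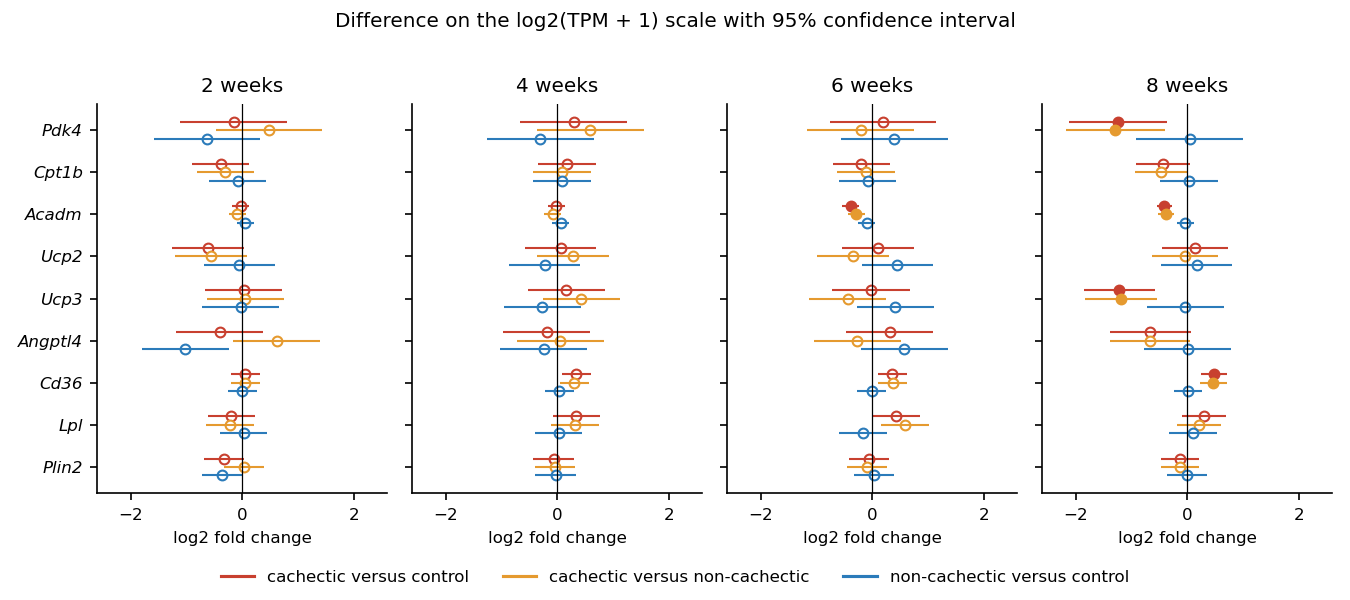
Fold change (log2 of TPM + 1) of the 9 genes in each week. The comparisons are cachectic against control, cachectic against non-cachectic and non-cachectic against control mice. Bars show the 95% confidence interval and filled points an adjusted p under 0.05. Filled points appear at 6 weeks for Acadm and at 8 weeks for Pdk4, Acadm, Ucp3 and Cd36.

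Whether the difference between cachectic and control mice itself changed from one week to another was tested for 3 pairs of weeks. None of the 9 genes was called in any of them, and the share of all genes called was 0% between 8 and 4 weeks, 0% between 6 and 4 weeks and 0% between 8 and 6 weeks. These counts moved under alternatives. Between 8 and 4 weeks 44 genes were called without cachectic replicate 3 of 8 weeks and 187 without the 4 libraries that list the fewest genes, the latter with 1 member. Array quality weights called 1055 genes with 1 member between 8 and 4 weeks, 2195 with 2 members between 6 and 4 weeks and 72 with 0 between 8 and 6 weeks, and the compared groups alone called 21 with 2 members between 6 and 4 weeks. Unadjusted p-values under 0.05 were found for 1022, 506 and 580 genes in these tests. Between 8 and 4 weeks 3 members had an unadjusted p under 0.05, Pdk4 (−1.54, adjusted p = 0.57), Ucp3 (−1.38, adjusted p = 0.46) and Acadm (−0.40, adjusted p = 0.18). Between 6 and 4 weeks Acadm alone was below that limit (−0.37, adjusted p = 0.59), and between 8 and 6 weeks Pdk4 (−1.43, adjusted p = 0.62) and Ucp3 (−1.20, adjusted p = 0.62) were. In the fit to all mice, calls at 8 weeks and not at earlier weeks are therefore not shown to differ between weeks, and no Dunn test was run for these changes.

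Over all 62 mice the 9 genes fell into a few pairs that ranked the mice alike. These rank correlations describe libraries that share their composition and carry no test. Of the 36 pairs, 4 had a Spearman rho above 0.5: Cd36 with Lpl (0.801), Ucp3 with Pdk4 (0.737), Cpt1b with Acadm (0.641) and Pdk4 with Angptl4 (0.508). The median over the 36 pairs was 0.149 and the lowest was −0.358.

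Among all tested genes, those most like each member were ranked by the same measure. Acadm ranked the mice most like Hadhb (0.897), Etfdh (0.895) and Acadvl (0.890), and Cpt1b most like Crat (0.855). For Lpl they were Ipo5 (0.901), Asrgl1 (0.894) and Cmya5 (0.890), and for Cd36 Fam134b (0.843), Lpl and Adgrl4 (0.799). Pdk4 was nearest to Tcp11l2 (0.751), Mapre3 (0.743) and Mlycd (0.742), and Ucp3 to Pdk4, Slc25a22 (0.709) and Slc25a42 (0.664). Ucp2 came closest to Plod3 (0.757), Tagln2 (0.754) and Tmem119 (0.740), Angptl4 to Enpep (0.660), Nr1d1 (0.605) and Lrrc8d (0.587), and Plin2 to Hcar2 (0.691), Ifi27 (0.614) and 9630013D21Rik (0.612).

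The other genes of the pathways around the 9 members were counted in lists that include the members, for cachectic against control mice at 8 weeks, where 8.12% of all tested genes were lower, 6.65% were higher, and their median fold change was −0.09, or 0.06 without the 4 libraries that list the fewest genes. Of all genes 833 were lower and 1708 higher without cachectic replicate 3, under median-ratio scaling 1651 and 1620, and under nuclear scaling 2869 and 746. In mitochondrial beta-oxidation 11 of 15 genes were lower and 1 was higher, with a list median of −0.47. Without cachectic replicate 3 it was 11 lower and 2 higher, under median-ratio scaling 8 lower and 0 higher (median −0.31), and under nuclear scaling 12 lower and 0 higher. Against non-cachectic mice 10 of 15 were lower and 2 higher, beside 6.19% and 6.75% of all genes. At 6 weeks against control 5 were lower and 1 higher, beside 1.17% and 5.62% of all genes (median −0.39 beside 0.17). The 1 higher gene at 8 weeks was Eci2 (0.29, adjusted p = 0.0095), named here after its values were seen, and it was not called under median-ratio scaling.

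Further steps of beta-oxidation showed the same side as Acadm. Hadhb and Hadha encode the subunits of the trifunctional protein, which acts on long chains. Hadhb had 413 ± 31.01 TPM (SD, n = 5) in control and 248 ± 51.5 TPM (n = 7) in cachectic mice at 8 weeks and was lower (log2 fold change −0.76, adjusted p = 4.4e-07), and at 6 weeks it was lower (log2 fold change −0.78, adjusted p = 2.1e-06). Hadha was lower (log2 fold change −0.93, adjusted p = 0.00043), from 388 ± 27.8 to 217 ± 78.1 TPM. Hadh, which encodes the dehydrogenase for shorter hydroxyacyl chains, was lower (log2 fold change −0.75, adjusted p = 3.9e-05), and Acaa2, which encodes the thiolase of the last step, was lower as well (−0.47, adjusted p = 0.00038). The Acaa2 call, like that of Acadm, was lost under median-ratio scaling.

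Carnitine shuttle genes were lower for 3 of 8 and higher for 0 (list median −0.45). Slc25a20 encodes the carrier that exchanges acylcarnitine for carnitine and was lower (log2 fold change −0.47, adjusted p = 0.012), Cpt2 encodes the inner transferase and was lower (log2 fold change −0.42, adjusted p = 0.040), and Slc22a5 encodes the importer of carnitine and was lower (log2 fold change −0.62, adjusted p = 0.018). Without cachectic replicate 3 the count was 1 of 8, since Cpt2 and Slc22a5 were no longer called. Under nuclear scaling it was 7 of 8 lower, and under median-ratio scaling 2 of 8, where Slc25a20 and Cpt2 were not called.

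Uptake and activation genes, Cd36 among them, split, with 2 of 11 higher and 2 of 11 lower (median −0.06, or 0.10 under median-ratio scaling). Acsl1 encodes the ligase that attaches long chains to coenzyme A and was lower (log2 fold change −1.17, adjusted p = 0.00020), from 255 ± 19.8 TPM in control to 121 ± 45.5 TPM in cachectic mice. Fabp3 encodes the cytosolic fatty acid binding protein of heart and muscle and was lower at 8 weeks (−0.56, adjusted p = 0.0011) and at 6 weeks (−0.83, adjusted p = 3.5e-05), and its call at 8 weeks was lost under median-ratio scaling. Dbi encodes the acyl-CoA binding protein and was higher by 0.75 (adjusted p = 0.0019). Around lipoprotein lipase 1 of 8 genes was higher and 0 lower (median 0.02, or −0.03 under nuclear scaling), and without cachectic replicate 3 it was 2, Lpl being the second. Gpihbp1, which encodes the protein that carries the lipase across the capillary endothelium, was higher by 0.84 (adjusted p = 0.00097), at 33.4 ± 6.37 TPM in control and 60.97 ± 12.4 TPM in cachectic mice.

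The pyruvate dehydrogenase list, which holds Pdk4, had 6 of 14 genes lower and 0 higher (median −0.34), and 5 of 14 without cachectic replicate 3. Pdhx and Dlat encode core proteins of the complex, and they were lower, at −0.61 (adjusted p = 6.8e-05) and −0.89 (adjusted p = 0.00016). Dlat had 116 ± 5.28 TPM in control and 65.98 ± 23.04 TPM in cachectic mice. Pdhb, for a subunit of its decarboxylase, was lower (log2 fold change −0.34, adjusted p = 0.0063), and Mpc2, for a subunit of the mitochondrial pyruvate carrier, was lower too (−0.32, adjusted p = 0.0014), and neither was called under median-ratio scaling. The kinase transcript Pdk4 and transcripts of the complex that the kinase inhibits were lower in the same comparison.

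Lipid droplet genes were called at about the share of all genes (14.8%), 2 of 14 lower and 0 higher (median −0.12, or 0.03 under median-ratio scaling), and without cachectic replicate 3 it was 2 and 3. Mgll encodes monoacylglycerol lipase and was lower (log2 fold change −1.06, adjusted p = 0.0059), and Fitm2 encodes a membrane protein of droplet formation and was lower (log2 fold change −0.93, adjusted p = 0.0080). In the list of uncoupling proteins and nucleotide carriers Ucp3 was the 1 of 7 called, with 0 higher (median 0.09). Of 13 further PPAR targets that passed the filter, out of 15 listed, 4 were lower and 0 higher (median −0.43). Acot2, for a mitochondrial acyl-CoA thioesterase, was lower (log2 fold change −0.81, adjusted p = 0.0094), and the peroxisomal genes Abcd3, Pex11a and Abcd2 were lower, at −0.56 (adjusted p = 0.019), −0.59 (adjusted p = 0.032) and −0.45 (adjusted p = 0.043). Without cachectic replicate 3 only 1 of the 13 was lower and 1 higher, with Abcd3, Pex11a and Abcd2 no longer called.

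The receptors themselves were not called at 8 weeks. Ppara had 27.7 ± 7.00 TPM (SD, n = 5) in control and 33.01 ± 20.6 TPM (n = 7) in cachectic mice, where replicate 3 had 1.22 TPM, and its difference on the log2 scale was −0.20 (adjusted p = 0.82), of the opposite sign to that of the mean TPM. It turned to 0.38 without replicate 3 (adjusted p = 0.47), and array quality weights called it higher (0.53, adjusted p = 0.035). Ppard differed by −0.20 (adjusted p = 0.79), turned to 0.33 without replicate 3 (adjusted p = 0.46) and was called higher under array quality weights (0.36, adjusted p = 0.0082). Pparg differed by 0.18 (adjusted p = 0.57). Of 14 receptors and coregulators 3 were lower and 0 higher (median −0.31), and without replicate 3 the count was 1 and the median 0.07.

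Perm1, which encodes a muscle regulator of oxidative genes induced by the coactivators, was lower (log2 fold change −1.45, adjusted p = 0.00088), from 302 ± 23.1 TPM in control to 137 ± 89.3 TPM in cachectic mice, and was the 1 still called without replicate 3. Ppargc1b was lower (log2 fold change −1.21, adjusted p = 0.016), from 10.3 ± 1.70 to 4.83 ± 3.12 TPM, and without replicate 3 the difference was −0.86 and no longer called. Rxrg, for a retinoid X receptor, was lower (log2 fold change −0.65, adjusted p = 0.036) and was not called without replicate 3 or under median-ratio scaling. Ppargc1a differed by −0.44 (adjusted p = 0.45).

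Pdk4 is also known to respond to FoxO factors and glucocorticoids, so a list of 7 such genes of muscle was counted beside it. Of these 2 were higher and 0 lower (median 0.60), and without cachectic replicate 3 it was 6 of 7 higher. Fkbp5, a gene induced by glucocorticoids, was higher by 2.51 at 8 weeks (adjusted p = 0.0050) and by 2.50 at 6 weeks (adjusted p = 0.021). It had 10.5 ± 4.53 TPM in control and 95.2 ± 56.8 TPM in cachectic mice at 8 weeks, where replicate 3, at 1.61 TPM, was the lowest of the series. Tsc22d3, another such gene, was higher by 0.93 (adjusted p = 0.047). Pdk4 lay on the lower side at 8 weeks while these 2 genes lay on the higher side. The Pdk4 call was lost without cachectic replicate 3 (−0.91, adjusted p = 0.13). How Pdk4 and the genes of this list are controlled was not tested.

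**Figure D4:**
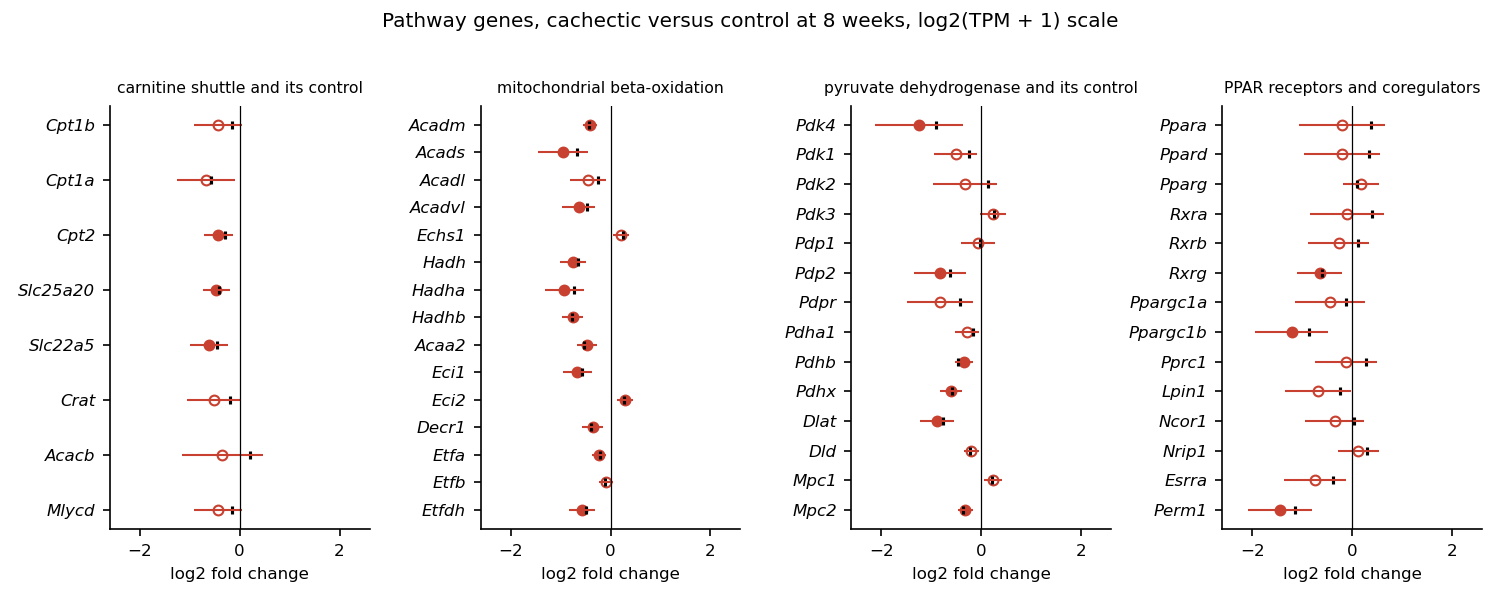
Fold change (log2 of TPM + 1) of tested genes from pathway lists, beta-oxidation among them, between cachectic and control mice at 8 weeks. Filled points mark adjusted p under 0.05, and a black tick gives the value without cachectic replicate 3. Most filled points of beta-oxidation lie below 0.

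The promoters of the members called at 8 weeks are shown because these genes were called in the same comparison and PPARs are known to bind near gene starts. RefSeq sequences (GRCm38.p6) of the 250 bases before the start were matched for 6 of the 9 genes, and Cpt1b, Angptl4 and Lpl had no match. Each was searched on both strands for AGGTCA, the core hexamer bound by nuclear receptors, and for AGGTCANAGGTCA, its direct repeat spaced by 1 base (DR1), to which PPARs bind. The hexamer was present in 4 of the 6 (Acadm, Ucp3, Cd36 and Plin2) and in 14.02% of all 32851 promoters of this length, and the repeat in 0 of the 6 and 0.0335% of all. In Ucp3, with the sequence chr7:100472741-100472990 on the plus strand, the hexamer began 149 and 44 bases before the start. It began 249 bases before the start of Acadm (chr3:153944644-153944893, minus strand) and 228 bases before that of Cd36 (chr5:17835897-17836146, minus strand), read on the opposite strand in both. The RefSeq start of Cd36 lies inside the span of the gene given above, so its window belongs to an internal start and not to the outermost one. The window of Pdk4 (chr6:5496279-5496528, minus strand), which lies partly inside the span given for that gene, held no hexamer. Capitals mark the hexamer, written TGACCT where it lies on the opposite strand, and a match is a description of the letters and not a bound site.
Ucp3: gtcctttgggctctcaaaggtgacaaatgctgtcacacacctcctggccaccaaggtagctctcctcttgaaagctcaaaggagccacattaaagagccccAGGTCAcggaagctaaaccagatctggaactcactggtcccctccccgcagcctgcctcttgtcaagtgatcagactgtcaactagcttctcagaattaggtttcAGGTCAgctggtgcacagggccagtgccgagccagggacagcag
Acadm: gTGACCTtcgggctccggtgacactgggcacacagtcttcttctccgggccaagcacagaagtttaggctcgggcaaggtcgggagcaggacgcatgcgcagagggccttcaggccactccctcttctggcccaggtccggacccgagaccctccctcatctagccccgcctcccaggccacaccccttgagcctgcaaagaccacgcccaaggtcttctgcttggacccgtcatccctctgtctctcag
Cd36: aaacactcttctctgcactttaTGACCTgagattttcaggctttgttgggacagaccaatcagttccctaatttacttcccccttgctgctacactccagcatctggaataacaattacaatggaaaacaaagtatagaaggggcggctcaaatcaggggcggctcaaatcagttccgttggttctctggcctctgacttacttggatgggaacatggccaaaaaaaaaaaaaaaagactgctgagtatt
Pdk4: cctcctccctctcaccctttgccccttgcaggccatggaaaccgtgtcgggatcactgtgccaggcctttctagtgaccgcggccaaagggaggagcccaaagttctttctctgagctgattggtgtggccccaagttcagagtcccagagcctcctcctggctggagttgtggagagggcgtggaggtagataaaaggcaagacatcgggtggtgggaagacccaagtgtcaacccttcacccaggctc
Of the printed windows, those of Ucp3, Acadm and Pdk4 belong to genes lower at 8 weeks and that of Cd36 to a gene that was higher, so a window with the hexamer was found for members of both directions.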

How the data were processed

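RNA sequencing of 62 mouse diaphragms was used as deposited: with CLC Genomics Workbench the authors mapped reads to mouse build GRCm38 (mm10) and computed TPM of 47643 genes. The sample labels and the article name different TruSeq library kits, of which the labels call theirs stranded, so strand use is not settled. Annotation release and treatment of multi-mapping reads are not given in the sources used here. All 62 value columns were matched to samples, 0 were left over, and no pair of libraries was identical. TPM were taken as log2(TPM + 1), where 1 is the pseudocount, and the 13578 genes reaching 1 TPM or more in 5 or more mice entered a fit with limma 3.58.1 in R 4.3.3. The fit had 1 mean for each of 12 groups and moderated variances with a trend. The 15 contrasts were adjusted by Benjamini-Hochberg over all genes within a contrast, and the test is two-sided. Replicates are separate mice. The procedure was tested on simulated data.

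Members and lists were chosen with earlier results of these data known. The named genes are the 9 members, Ppara, Ppard, Pparg, Ppargc1a, Ppargc1b and, from each pathway list, up to 4 further genes with the smallest p among those called in cachectic against control mice at 8 weeks. Apoc2 and Itgam have no entry under those symbols. Gene positions are from GENCODE on GRCm38. Alternatives were a pseudocount of 0.1, no filter, median-ratio scaling, rescaling of nuclear genes, array quality weights, Dunn's test, a replicate block, a fit to the compared groups alone, a log2 fold change over 1, leaving out the 4 libraries listing the fewest genes or with the most liver RNA, and leaving out each mouse.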

Additional observations from a re-analysis of the deposited data

Results flagged for a closer look

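Dixon's range test was applied to each of the 9 genes in each of 12 groups, 108 in all, and 10 groups had 1 mouse far from the others. Chance gives about 1 in 20 such groups. In cachectic mice at 8 weeks replicate 3 was far below the others for Pdk4 (71.8 TPM against 259 to 569.7), Cpt1b (89.7 TPM against 280.2 to 460.2) and Lpl (468 TPM against 1380.4 to 2155), so 3 of the 10 lie in that library. Lpl was low in non-cachectic replicate 5 at 2 weeks (534 TPM against 1080.0 to 1188), another of the 4 libraries that list the fewest genes.

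Cpt1b was low in control replicate 2 at 2 weeks (265 TPM against 337 to 362), the library with the highest liver sum. Acadm was low in cachectic replicate 4 at 4 weeks (351 TPM against 370.3 to 378). Ucp2 was high in non-cachectic replicate 2 at 4 weeks (24.1 TPM against 11.99 to 13.2) and in non-cachectic replicate 4 at 6 weeks (49.7 TPM against 15.9 to 19.3). Ucp3 was high in non-cachectic replicate 1 at 6 weeks (58.5 TPM against 38.2 to 42.9) and low in non-cachectic replicate 1 at 8 weeks (22.8 TPM against 38.6 to 43.9). None of these values was left out of the fit.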

How the results depend on the processing

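For each member 4 fold changes (cachectic against control or non-cachectic mice at 6 and 8 weeks) were recomputed under each alternative that refits the fold change, 720 values in all, which leaves out Dunn's test and the threshold of 1 on the log2 fold change. Of these 642 kept their direction and their side of the threshold, 29 kept direction and lost the call, 27 gained it and 22 changed sign. No called member changed sign. The cause was not tested for any of the changes below, except where fewer mice or a stricter threshold make it by construction.

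Under median-ratio scaling the values that changed sign were, at 6 weeks against control, Pdk4 (−0.0016) and Ucp2 (−0.076), at 8 weeks against control Plin2 (0.0296), and at 8 weeks against non-cachectic mice Ucp2 (0.0857) and Plin2 (0.005). Nuclear scaling turned Ucp2 at 6 weeks against control (−0.0563). Array quality weights, whose iteration stopped before it converged, turned Cpt1b at 8 weeks against control (0.0646) and non-cachectic mice (0.0061) and Ucp2 against non-cachectic mice (0.0873). Leaving out the 4 libraries that list the fewest genes turned Ucp2 at 8 weeks against non-cachectic mice (0.1247).

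Leaving out 1 mouse turned, at 6 weeks against control, Ucp2 without cachectic replicate 1 (−0.0695), Ucp3 without cachectic replicate 3 (0.1442), control replicate 2 (0.0873) or control replicate 5 (0.0838), and Plin2 without cachectic replicate 4 (0.0368) or control replicate 5 (0.0043). The ranges over all mice left out in that comparison ran from −0.0695 to 0.2658 for Ucp2, −0.2049 to 0.1442 for Ucp3 and −0.1195 to 0.0368 for Plin2. At 6 weeks against non-cachectic mice it turned Plin2 without cachectic replicate 4 (0.0005, from a range that began at −0.1559). At 8 weeks it turned Ucp2 against control without control replicate 1 (−0.0091, range to 0.2959), and against non-cachectic mice without cachectic replicate 1 (0.0542) or 3 (0.1247) or non-cachectic replicate 4 (0.0034) or 5 (0.0386), in a range of −0.124 to 0.1247.

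The number of members called was recomputed for 15 comparisons, and 330 of 362 counts were within 1.5 times the main count. Each count is given with that of all genes called under the same alternative, of 13578 tested, after a slash. At 8 weeks against control (main 4/2005) Dunn's test gave 1/1121 after adjustment, the compared groups alone 1/552, and a log2 fold change over 1 gave 2/406, with 3 to 4 members when leaving out each mouse. Against non-cachectic mice at 8 weeks (main 4/1757) these were 0/607, 0/364 and 2/344, with 3 to 4. At 6 weeks against control (main 1/922) median-ratio scaling gave 2/1012, array quality weights 4/6565, Dunn's test 0/0 adjusted and 3/4433 unadjusted, the compared groups alone 4/4030, a log2 fold change over 1 gave 0/206, and leaving out the 4 libraries with the fewest genes 3/4233. Against non-cachectic mice at 6 weeks (main 1/794) array quality weights gave 3/5519, Dunn's test 0/0 and 3/3608, the compared groups alone 3/3302, a log2 fold change over 1 gave 0/208, the 4 libraries left out 3/3700, and leaving out each mouse 0 to 1 members.

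Where the main count was 0, at 2 weeks leaving out each mouse gave 0 to 2 for cachectic against control and 0 to 1 for non-cachectic against control mice, the latter 1/1767 under array quality weights and 1/1452 by Dunn's test unadjusted. At 4 weeks array quality weights gave 1/1069 against control and 1/1115 against non-cachectic mice, and Dunn's test unadjusted 3/1790 against control. The change between 8 and 4 weeks gave 1/1055 under array quality weights and 1/187 without the 4 libraries with the fewest genes, and that between 6 and 4 weeks gave 2/2195 under array quality weights and 2/21 with the compared groups alone. Dunn's test was not run for changes between weeks.

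Replicate numbers were not treated as pairs. The deviations of same-numbered mice correlated above 0.1 in 18 of 60 pairs, and 11 of 60 mice correlated best with their own number. At 8 weeks the correlation was above 0.1 in 4 of 5 pairs of cachectic and control mice. For cachectic and non-cachectic mice of that week it was 3 of 5. Such correlations cannot decide whether same-numbered mice belong together. With the number as a block, the member count equalled the main count in all 15 comparisons. The block still moved some values at 8 weeks. Lpl went from 0.31 to 0.14 against control and from 0.21 to 0.04 against non-cachectic mice. The median fold change of all genes against control went from −0.09 to −0.20.

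The number of all genes called moved more. Over the other alternatives and then over leaving out each mouse it ran, for cachectic against control, from 0 to 4205 and from 21 (without control replicate 2) to 7936 (without cachectic replicate 1) at 2 weeks (main 3973), 0 to 1790 and 0 to 16 at 4 weeks (main 3), 0 to 6565 and 413 to 1040 at 6 weeks (main 922), and 406 to 4921 and 1543 to 2541 at 8 weeks (main 2005). For cachectic against non-cachectic mice it ran from 0 to 481 and 0 to 827 (main 0), 0 to 1653 and 2 to 7 (main 4), 0 to 5519 and 346 to 850 (main 794), and 344 to 5552 and 1214 to 2421 (main 1757). For non-cachectic against control mice the ranges at 2 weeks were 0 to 1767 and 203 to 896 (main 602). For changes between weeks (main 0 each) they were 0 to 1055 and 0 to 44 (8 and 4 weeks), 0 to 2195 and 0 to 5 (6 and 4 weeks), and 0 to 72 and 0 (8 and 6 weeks), the upper end of each first range under array quality weights. Read depth is not known from TPM, so what depth limits cannot be stated.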
